A study of Homo sapiens with 9 samples.

Results

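The genes described here are 9 transcripts that the transcription factor NRF2 is known to induce, namely NQO1, HMOX1, GCLC, GCLM, TXNRD1, SRXN1, AKR1B10, AKR1C1 and OSGIN1. They were listed by symbol, with no threshold on a measured value but with earlier results of these data known, and all 9 were found among the 42717 genes of the count table. RNA-seq was performed in the lines S2-007, S2-028 and S2-020, sublines of the human pancreatic ductal adenocarcinoma (PDAC) cell line SUIT-2, with 3 libraries per subline and 9 in all. No treatment is named, and the cells were grown in DMEM with serum. The study compared the lines because maspin, a serpin known as a tumor suppressor in other tissues, lies in the nucleus and cytoplasm of S2-007 and in the cytoplasm only of S2-028, while S2-020 was used elsewhere in the study as a host for introduced maspin. Each group is a single cell line, so a difference between groups is a difference between these lines, and maspin status cannot be told apart from anything else in which they differ.

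NRF2, encoded by NFE2L2, is a bZIP factor that is normally bound by KEAP1 in the cytoplasm, ubiquitinated by the CUL3-RBX1 ligase and degraded. Oxidants and electrophiles modify KEAP1, after which NRF2 enters the nucleus, pairs with a small MAF protein and binds antioxidant response elements (AREs) in its target genes. The repressor BACH1 also pairs with small MAF proteins and competes for such elements, and heme releases it from DNA. The targets make and use glutathione (GCLC, GCLM), reduce thioredoxin and peroxiredoxin (TXNRD1, SRXN1), reduce quinones and carbonyls (NQO1, AKR1B10, AKR1C1), degrade heme (HMOX1) or restrain growth under oxidative stress (OSGIN1). In pancreatic tumors the pathway is known for supporting redox balance.

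Levels are given in CPM, read counts scaled to library size, here with the trimmed mean of M-values (TMM) over all 9 libraries. A gene was called upregulated or downregulated where edgeR's quasi-likelihood test gave a Benjamini-Hochberg adjusted p below 0.05 over all genes tested and the difference was at least 1.5-fold. The labels do not say that the 3 libraries of a line came from separate cultures, so the p-values measure only the spread between these libraries, which may be technical. The 3 comparisons share libraries and are not independent of each other.

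The libraries held between 60328748 and 86253923 counted reads, and a count of 3 corresponded to at most 0.0492 CPM. All 9 targets passed the filter on low counts in every comparison. The 6 epithelial and ductal markers (KRT7, KRT8, KRT18, KRT19, EPCAM and CDH1) were each at 1 CPM or more in every library, and their summed level ranged from 9539 to 10073 CPM in S2-007, from 4308 to 5426 CPM in S2-020 and from 15156 to 17763 CPM in S2-028. KRT8 and KRT18, at 2911 and 1682 CPM on average, made up most of the sum in S2-020. In S2-020 against S2-007, KRT19, CDH1, KRT7, EPCAM and KRT8 were downregulated, with log2 differences of −4.40, −3.61, −2.38, −2.15 and −0.76. KRT18 (−0.29) was not called. The part of these differences in the levels below was not tested. The fibroblast and endothelial markers summed to at most 5.75 and 9.84 CPM in any library. LYZ in S2-007 accounted for most of a summed leukocyte level of 295 to 370 CPM, and the remaining leukocyte markers summed to at most 2.30 CPM in any library. The 6 acinar and islet markers summed to at most 1.36 CPM, so the labelled tissue, pancreas, was not marked by its exocrine or endocrine products. Replicate 3 of S2-007 had the highest level of its line for 9 of the 9 targets, against 58.1% of 10524 expressed genes, and results of the 9 targets that rest on it are given with and without it.

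AREs are shown first because they are what the 9 genes are known to share. The core ARE searched was TGACNNNGC on both strands, and the full element was TGACTCAGC, which is 1 form of the core. Sequences are from GRCh38.p14, at RefSeq gene starts, written 5′ to 3′ on the strand of the gene with the element in capitals. Of the 9 genes, 7 had an entry in the RefSeq promoter table. The core ARE lay within 250 bases upstream of the start in GCLM and TXNRD1 (at each of the 2 starts listed for TXNRD1), and in none of these windows of AKR1C1, GCLC, NQO1, OSGIN1 and SRXN1. It was present in 10.9% of 35116 promoter entries. The full element lay within 5000 bases upstream of the outermost start in NQO1 and GCLC, and in 6.66% of 27305 genes. For each of these 4 genes 1 element is printed below with the bases around it, for TXNRD1 that at the start farther upstream.
NQO1, 455 bases upstream, chr16:69726997-69727025, minus strand: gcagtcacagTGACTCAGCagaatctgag
GCLC, 3156 bases upstream, chr6:53548224-53548282, minus strand: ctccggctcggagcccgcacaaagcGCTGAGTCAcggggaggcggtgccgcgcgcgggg
GCLM, 34 bases upstream, chr1:93909446-93909474, minus strand: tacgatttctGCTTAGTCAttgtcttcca
TXNRD1, 99 bases upstream, chr12:104215655-104215713, plus strand: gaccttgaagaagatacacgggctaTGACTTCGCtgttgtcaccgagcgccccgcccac
In GCLC and GCLM the element reads on the strand opposite to the gene. The NQO1 window overlaps an exon of the divergent transcript NQO1-DT, and the GCLM window overlaps an exon of a longer GCLM transcript in GENCODE. A match is a stretch of letters and not a measured binding site.

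The 9 targets did not move together. In these bulk libraries a lower level can mean fewer cells that express a gene or less of its RNA per cell, which cannot be told apart. HMOX1, GCLM, AKR1C1 and NQO1 were highest in S2-020, AKR1B10 and OSGIN1 were highest in S2-007, and GCLC, TXNRD1 and SRXN1 differed by less than 1.5-fold in every comparison. In S2-028 against S2-007, 0 of 9 targets were upregulated against 10.2% of all genes, and 4 of 9 (AKR1B10, AKR1C1, HMOX1 and OSGIN1) were downregulated against 8.19%. DESeq2 also called 0 upregulated there, and 1 target (GCLM) was higher at an unadjusted edgeR p below 0.05. In S2-020 against S2-007, 3 of 9 (AKR1C1, GCLM and HMOX1) were upregulated against 9.57% of all genes, and 2 of 9 (AKR1B10 and OSGIN1) were downregulated against 12.1%. In S2-028 against S2-020, AKR1B10 alone of the 9 was upregulated against 12.1% of all genes, and 5 of 9 (AKR1C1, GCLM, HMOX1, NQO1 and OSGIN1) were downregulated against 10.1%. The median log2 difference over the 9 targets was −0.23, −0.05 and −0.63 in the same order, and that over all genes was 0.00, −0.05 and 0.02. An adjusted p below 0.05 regardless of size was reached by 6, 8 and 7 of the 9 targets, against 33.9%, 40.2% and 40.4% of all genes. Without replicate 3 of S2-007 the first of these counts fell to 5 and the second to 7, and with any single library left out the first ran from 4 to 7. The CPM ranges of the lines compared did not overlap for 4, 8 and 7 of the 9, against 43.3%, 48.5% and 48.9% of all genes. The shares of all genes, here and below, are not matched in level to the genes they stand beside. A small adjusted p and separate ranges depend in part on the number of reads.

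**Figure D1:**
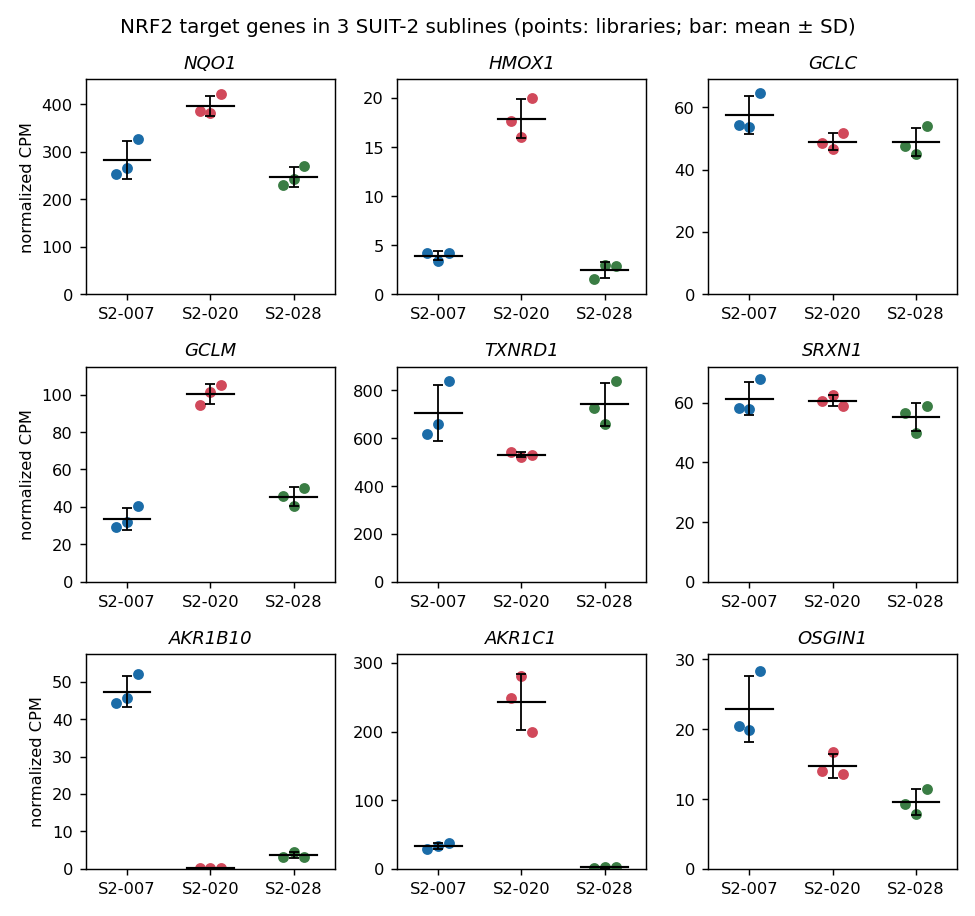
Level of each of the 9 NRF2 target genes in normalized CPM (y axis, linear, starting at 0) in the 3 libraries of each subline (x axis), with points for libraries and bars for the mean ± SD. HMOX1, GCLM, AKR1C1 and NQO1 peak in S2-020, AKR1B10 is near 0 in S2-020, and SRXN1 lies between 49.9 and 67.9 CPM in all 9 libraries.

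Glutathione synthesis was represented by the catalytic subunit (GCLC) and the modifier subunit (GCLM) of glutamate-cysteine ligase, the enzyme of the rate-limiting step. GCLM (chr1:93885199-93909430, minus strand, 7 exons) was at 28.9, 31.8 and 40.3 CPM in S2-007, at 94.7, 102 and 105 CPM in S2-020, and at 45.5, 40.2 and 50.3 CPM in S2-028. Every S2-020 library was above every library of both other lines, while the highest S2-007 library, replicate 3, overlapped with the range of S2-028. The means were 33.7 ± 5.88, 100.4 ± 5.23 and 45.4 ± 5.06 CPM (SD, n = 3 each). GCLM was upregulated in S2-020 against S2-007 with a log2 fold change of 1.55 ± 0.0847 (SE, adjusted p = 8.35e-12) and downregulated in S2-028 against S2-020 at −1.15 ± 0.0743 (adjusted p = 1.77e-10). Its difference between S2-028 and S2-007 was 0.43 ± 0.101 on the log2 scale (adjusted p = 0.0016), below the 1.5-fold limit. Without replicate 3 of S2-007 this difference was 0.57 (adjusted p = 0.000104), still below that limit.

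GCLC (chr6:53497341-53545101, minus strand, 16 exons) stayed in a narrow range. Its level was 54.3, 53.6 and 64.6 CPM in S2-007, 48.7, 46.5 and 51.8 CPM in S2-020, and 47.5, 45.0 and 53.9 CPM in S2-028. The S2-007 libraries were all above those of S2-020, and the S2-028 libraries overlapped with both other lines. The log2 differences were −0.23 ± 0.0805 (SE, adjusted p = 0.0296) in S2-028 against S2-007, −0.26 ± 0.0701 (adjusted p = 0.00479) in S2-020 against S2-007 and −0.00 ± 0.0743 (adjusted p = 0.98) in S2-028 against S2-020. GCLC was called in none of these comparisons. Without replicate 3 of S2-007 the first difference was −0.15 (adjusted p = 0.203) and the second −0.15 (adjusted p = 0.0864), so neither kept an adjusted p below 0.05. The first also lost it without replicate 1 of S2-028 (adjusted p = 0.102) or replicate 2 of S2-028 (adjusted p = 0.145). Per kilobase of the canonical transcript, GCLC was above GCLM in S2-007 (15.2 against 6.90 CPM per kb) and in S2-028 (12.9 against 9.29 CPM per kb), and GCLM was above GCLC in S2-020 (20.6 against 12.9 CPM per kb). The catalytic and modifier subunits thus changed places in the order of levels in S2-020.

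Thioredoxin reductase 1 (TXNRD1), a selenoprotein that returns electrons from NADPH to thioredoxin, was the most abundant target per kilobase in S2-007 and S2-028, at 183 and 192 CPM per kb. TXNRD1 (chr12:104215779-104350307, plus strand, 17 exons) was at 618, 658 and 841 CPM in S2-007, at 544, 519.7 and 531 CPM in S2-020, and at 728, 660.2 and 839.5 CPM in S2-028. All S2-020 libraries lay below the other 6, and the ranges of S2-007 and S2-028 overlapped. The log2 difference of S2-020 against S2-007 was −0.44 ± 0.0738 (SE, adjusted p = 6.05e-05), and that of S2-028 against S2-020 was 0.48 ± 0.0645 (adjusted p = 4.1e-06), both below the 1.5-fold limit. Without replicate 3 of S2-007 the first of these was −0.27 (adjusted p = 6.21e-05). Between S2-028 and S2-007 it was 0.08 ± 0.0890 (adjusted p = 0.578), and it took either sign when single libraries were left out (−0.02 to 0.21). Leaving out replicate 3 of S2-007 brought its adjusted p to 0.0464.

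Sulfiredoxin (SRXN1), which repairs overoxidized peroxiredoxins, was the steadiest of the 9. SRXN1 (chr20:646615-653200, minus strand, 2 exons) was at 58.4, 57.9 and 67.9 CPM in S2-007, at 60.5, 62.6 and 58.9 CPM in S2-020, and at 56.6, 49.9 and 59.0 CPM in S2-028. The ranges of all 3 lines overlapped. No comparison reached an adjusted p below 0.05, with log2 differences of −0.15 ± 0.0763 (SE, adjusted p = 0.153), −0.05 ± 0.0628 (adjusted p = 0.615) and −0.14 ± 0.0682 (adjusted p = 0.133) in S2-028 against S2-007, S2-020 against S2-007 and S2-028 against S2-020. Of the SRXN1 exon bases, 90.7% lie within another annotated gene on the same strand (ENSG00000270299), and how the counting assigned reads there is not given in the sources used here.

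NQO1, a flavoprotein that reduces quinones to hydroquinones and is widely used as a readout of NRF2 activity, was the most abundant target per kilobase in S2-020 (157 CPM per kb). NQO1 (chr16:69709401-69726560, minus strand, 6 exons) was at 253, 266 and 327 CPM in S2-007, at 386, 382 and 421 CPM in S2-020, and at 229, 242 and 269 CPM in S2-028. The S2-020 libraries were above the other 6, and S2-007 and S2-028 overlapped. NQO1 was downregulated in S2-028 against S2-020 at −0.68 ± 0.0600 on the log2 scale (SE, adjusted p = 1.5e-08). Its log2 difference in S2-020 against S2-007 was 0.46 ± 0.0698 (adjusted p = 1.76e-05), which was below the 1.5-fold limit but became 0.60 and was called without replicate 3 of S2-007. In S2-028 against S2-007 the difference was −0.19 ± 0.0774 (adjusted p = 0.0671), and its adjusted p was below 0.05 in 5 of the 14 alternatives. That adjusted p ranged from 0.0122 with the replicate block to 0.452 without replicate 3 of S2-007, where the difference was −0.08.

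The chromosomal surroundings of NQO1 differed in the same direction. Among the 50 nearest tested genes, all within 1.57 Mb, the median log2 difference in S2-020 against S2-007 was 0.44, with 20 of 50 upregulated (40.0% against 9.57% of all genes) and 2 downregulated. In S2-028 against S2-020 it was −0.53, with 23 of 50 downregulated (46.0% against 10.1%) and 3 upregulated. For the other 8 targets the corresponding medians over 50 neighbors ranged from −0.23 to 0.26 over the 3 comparisons. Copy number was not measured, and its part in the NQO1 level was not tested. Of the NQO1 exon bases, 19.4% lie opposite an antisense gene (ENSG00000261602). This overlap bears on the NQO1 counts if the counting ignored strand, and its strand setting is not given in the sources used here.

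HMOX1 encodes heme oxygenase 1, the inducible enzyme that opens heme into biliverdin, carbon monoxide and iron, and it is the classic gene repressed by BACH1. HMOX1 (chr22:35381096-35394207, plus strand, 5 exons) was at 4.17, 3.41 and 4.21 CPM in S2-007, at 17.7, 16.0 and 19.9 CPM in S2-020, and at 1.58, 3.01 and 2.92 CPM in S2-028. The 3 lines did not overlap, although S2-007 and S2-028 were close together. HMOX1 was upregulated in S2-020 against S2-007 at 2.15 ± 0.123 on the log2 scale (SE, adjusted p = 1.62e-11), and downregulated in S2-028 against S2-020 at −2.84 ± 0.180 (adjusted p = 1.33e-10). The smaller decrease in S2-028 against S2-007 was −0.65 ± 0.225 (adjusted p = 0.0295). That call was lost without replicate 1 of S2-028 (−0.41, adjusted p = 0.162), without replicate 1 of S2-007 (adjusted p = 0.0939) and without replicate 3 of S2-007 (adjusted p = 0.0810), and its adjusted p ranged from 0.00767 to 0.162 over all alternatives. Per kilobase HMOX1 was among the least abundant targets, at 2.53, 11.5 and 1.61 CPM per kb in S2-007, in S2-020 and in S2-028.

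The aldo-keto reductases spanned the widest range. AKR1B10, which reduces retinal and other aldehydes and is found in many epithelial tumors, is encoded at chr7:134527567-134541412 on the plus strand with 10 exons. Its level was 44.3, 45.6 and 52.1 CPM in S2-007, 0.251, 0.264 and 0.307 CPM in S2-020, and 3.12, 4.51 and 3.31 CPM in S2-028. The S2-020 values rest on 18 to 22 reads per library, above the 3 reads taken as the floor. Because these reads are few, the standard error given below for S2-020 against S2-007 may be too small. The lines were fully separated in the order S2-007, S2-028, S2-020. AKR1B10 was downregulated in S2-028 against S2-007 at −3.69 ± 0.119 on the log2 scale (SE, adjusted p = 5.97e-16) and in S2-020 against S2-007 at −7.46 ± 0.129 (adjusted p = 1.81e-19), and was upregulated in S2-028 against S2-020 at 3.73 ± 0.273 (adjusted p = 1.04e-09).

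AKR1C1, which inactivates progesterone by reduction of a ketone, is encoded at chr10:4963415-4983283 on the plus strand with 9 exons. It was at 29.3, 34.0 and 37.3 CPM in S2-007, at 249, 280.5 and 199 CPM in S2-020, and at 1.84, 3.23 and 2.66 CPM in S2-028. The lines were again fully separated, now in the order S2-020, S2-007, S2-028. AKR1C1 was downregulated in S2-028 against S2-007 at −3.70 ± 0.148 on the log2 scale (SE, adjusted p = 2.19e-14), upregulated in S2-020 against S2-007 at 2.83 ± 0.100 (adjusted p = 8.61e-15) and downregulated in S2-028 against S2-020 at −6.56 ± 0.148 (adjusted p = 2.53e-17). In S2-028 AKR1B10 and AKR1C1 were both lower than in S2-007, whereas in S2-020 AKR1B10 was lower and AKR1C1 higher.

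Near-identical genes limit how exactly reads can be assigned to both reductases. Of the 31-base words of the canonical AKR1C1 transcript, 28.5% also occur in AKR1C2, and 58.2% of those of AKR1C2 occur in AKR1C1. Of those of AKR1B10, 21.3% occur in AKR1B15. With AKR1C1, AKR1C2, AKR1C3 and AKR1C4 summed, the log2 differences were −4.34 in S2-028 against S2-007, 1.32 in S2-020 against S2-007 and −5.68 in S2-028 against S2-020. With AKR1B10 and AKR1B15 summed, they were −3.25, −4.88 and 1.58 in the same order. All 6 summed differences remained past both limits of the call, and AKR1B15 itself was counted at 71 to 166 reads per library. AKR1C3 had the highest level of the AKR1C genes summed in S2-007 and in S2-028. The AKR1C sums therefore partly reflect AKR1C3 and do not show the difference of AKR1C1 alone.

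**Figure D2:**
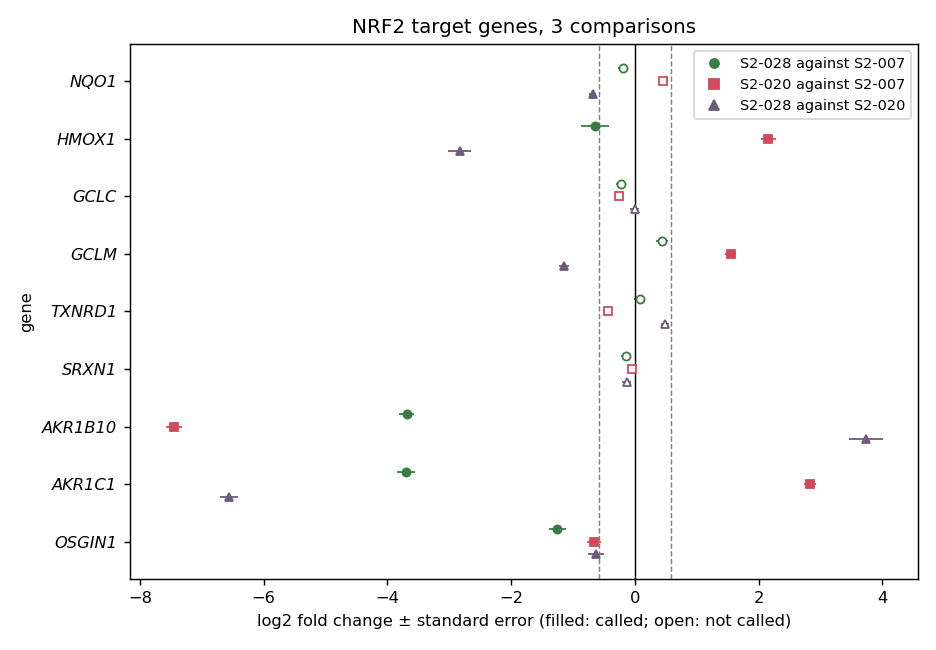
Log2 fold change ± standard error (x axis) of the 9 NRF2 target genes (y axis) in the 3 comparisons, with filled symbols for genes called and open symbols for genes not called, and dashed lines at the 1.5-fold limit. AKR1B10 and AKR1C1 extend to −7.46 and −6.56, whereas GCLC, TXNRD1 and SRXN1 stay inside the dashed lines.

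The AKR1C genes lie side by side on the short arm of chromosome 10. AKR1C2, which reduces dihydrotestosterone, was at 25 ± 3.73 CPM in S2-007, 93.5 ± 14.7 in S2-020 and 2.51 ± 0.424 in S2-028 (SD, n = 3 each). AKR1C3, which reduces androstenedione and prostaglandins, was at 138 ± 18.9, 164 ± 11.7 and 4.63 ± 1.44 CPM. In S2-028 against S2-007 the log2 differences of AKR1C2 and AKR1C3 were −3.31 ± 0.142 and −4.90 ± 0.142 (SE, adjusted p = 6.43e-14 and 1.18e-16). In S2-020 against S2-007 AKR1C2 was upregulated at 1.87 ± 0.102 (adjusted p = 7.76e-12), and AKR1C3 differed by 0.22 (adjusted p = 0.025), below the 1.5-fold limit. AKR1C4, the liver enzyme of the cluster, was counted at 0 to 32 reads per library. Among the 50 nearest tested genes of AKR1C1, within 1.61 Mb, 5 (10.0%) were downregulated against 8.19% of all genes and 2 upregulated in S2-028 against S2-007, with a median of −0.13. These 5 included AKR1C2, AKR1C3, LOC101928051 near AKR1C2 and TUBAL3 at 0.426 Mb (−3.74), the last 2 of which were picked out after their values were seen. TUBAL3 was not called in S2-020 against S2-007 (−1.46). It did not pass the filter on low counts in S2-028 against S2-020, so it had few reads in both of those lines.

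**Figure D3:**
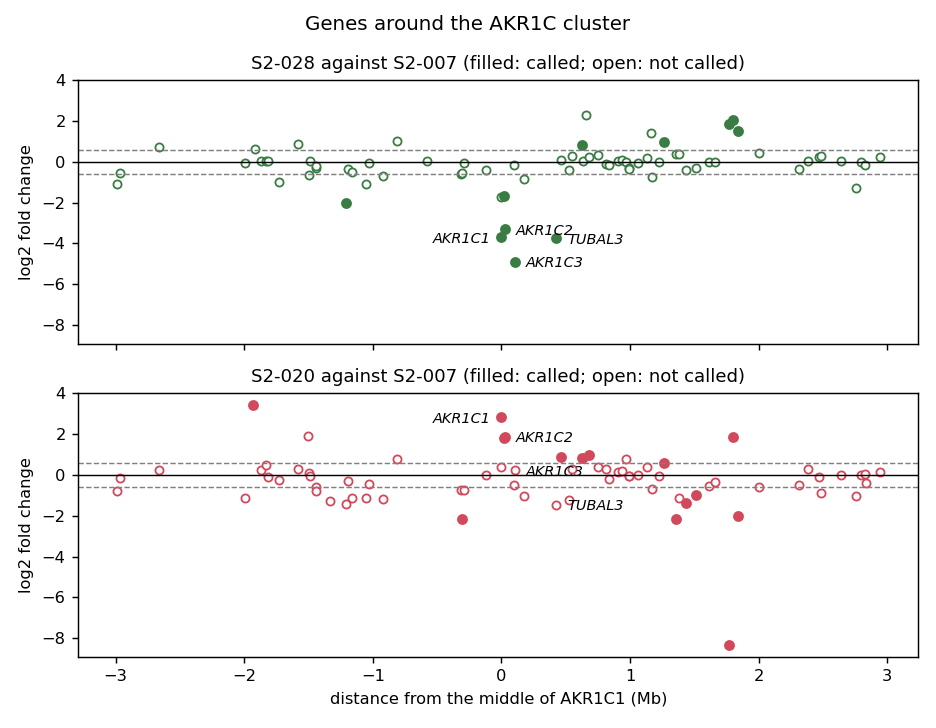
Log2 fold change (y axis) of tested genes against their distance in Mb from the middle of AKR1C1 (x axis) in S2-028 against S2-007 (top) and S2-020 against S2-007 (bottom), with filled points for genes called and dashed lines at the 1.5-fold limit. AKR1C1, AKR1C2 and AKR1C3 drop to between −3.31 and −4.90 in the top panel, and AKR1C1 and AKR1C2 rise to 2.83 and 1.87 in the bottom panel.

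OSGIN1, an oxidative stress-induced growth inhibitor, followed another order. OSGIN1 (chr16:83953240-83966332, plus strand, 6 exons) was at 20.5, 19.9 and 28.3 CPM in S2-007, at 14.1, 16.7 and 13.5 CPM in S2-020, and at 9.34, 7.83 and 11.5 CPM in S2-028. The 3 ranges did not overlap and ran from S2-007 down to S2-028. OSGIN1 was downregulated in S2-028 against S2-007 at −1.25 ± 0.140 on the log2 scale (SE, adjusted p = 2.61e-07). The steps between S2-020 and its neighbors were close to the 1.5-fold limit. In S2-020 against S2-007 the difference was −0.66 ± 0.117 (adjusted p = 9.96e-05), and −0.46 without replicate 3 of S2-007, which was no longer called. In S2-028 against S2-020 it was −0.63 ± 0.133 (adjusted p = 0.000698), and it lost the call without replicate 2 of S2-020 (−0.53) or replicate 2 of S2-028 (−0.49).

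The regulators of the pathway were then examined, in a list of 18 genes. NFE2L2 itself was at 116 ± 3.11 CPM in S2-007, 86.2 ± 5.54 in S2-020 and 109.9 ± 9.45 in S2-028 (SD, n = 3 each), and was called in no comparison. Its log2 difference in S2-020 against S2-007 was −0.45 ± 0.0585 (SE, adjusted p = 2.3e-06), so the line with the most HMOX1, GCLM, NQO1 and AKR1C1 transcripts had the fewest NFE2L2 transcripts. KEAP1 was at 109.8 ± 11, 136 ± 7.06 and 115 ± 1.65 CPM and was not called either, with a log2 difference of 0.28 ± 0.0634 (adjusted p = 0.0012) in S2-020 against S2-007. CUL3 and RBX1, the ligase that KEAP1 recruits, were not called in any comparison. NRF2 is controlled mainly at the protein level, which was not measured in these libraries.

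BACH1 was the regulator that differed most in both comparisons that include S2-020, whereas in S2-028 against S2-007 it was NFE2L3, described below. BACH1 was not called in that comparison. The BACH1 level was 84.8, 87.1 and 96.1 CPM in S2-007, 18.7, 17.1 and 18.3 CPM in S2-020, and 58.0, 59.9 and 65.4 CPM in S2-028. The 3 lines were fully separated, and S2-020 was far below the others. The 50 genes nearest to BACH1 had a median log2 difference of −0.36 in S2-020 against S2-007 (quartiles −0.60 and −0.06). Of these 50 genes, 7 (14%) were downregulated against 12.1% of all genes. By edgeR 0 were upregulated, DESeq2 called 1 upregulated, and at an unadjusted edgeR p below 0.05 there was 1 higher gene and 22 lower ones. BACH1 was downregulated in S2-020 against S2-007 at −2.34 ± 0.0663 on the log2 scale (SE, adjusted p = 2.89e-16) and was higher in S2-028 than in S2-020 by 1.76 ± 0.0750 (adjusted p = 3.01e-13). In S2-028 against S2-007 the difference was −0.54 ± 0.0667 (adjusted p = 9.8e-07), below the 1.5-fold limit. HMOX1 was thus highest where BACH1 was lowest, but S2-028 had less BACH1 than S2-007 without having more HMOX1. BACH1 protein and its binding were not measured, and the part of BACH1 in the HMOX1 level was not tested.

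NFE2L3, encoding the related factor NRF3, was at 47.2 ± 2.46 CPM in S2-007, 78.1 ± 2.49 in S2-020 and 123 ± 6.64 in S2-028. It was upregulated in S2-028 against S2-007 at 1.39 ± 0.0658 on the log2 scale (SE, adjusted p = 3.4e-13), in S2-020 against S2-007 at 0.70 ± 0.0575 (adjusted p = 4.27e-09) and in S2-028 against S2-020 at 0.66 ± 0.0580 (adjusted p = 1.49e-08). SQSTM1, the autophagy adaptor that sequesters KEAP1 and is also an NRF2 target, was at 237 ± 24.5, 365 ± 39.4 and 315 ± 32.3 CPM, and was upregulated in S2-020 against S2-007 at 0.60 ± 0.0715 (adjusted p = 8.6e-07). AMER1, which binds KEAP1, was upregulated in both S2-028 (0.77) and S2-020 (1.53) against S2-007. SYVN1, a ubiquitin ligase that also targets NRF2, was downregulated in S2-020 against S2-007 (−0.87). Of the small MAF genes, MAFF was called in S2-028 against S2-020 (0.78) and MAFG and MAFK were not called in any comparison. NFE2 and BACH2 were at 0.627 CPM or less on average in every line.

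In all, 2 of the 18 regulators (11.1%) were upregulated and 0 downregulated in S2-028 against S2-007, against 10.2% and 8.19% of all genes. In S2-020 against S2-007, 3 (16.7%) were upregulated and 2 (11.1%) downregulated, against 9.57% and 12.1%, and in S2-028 against S2-020, 3 (16.7%) and 1 (5.56%), against 12.1% and 10.1%. Where 0 regulators were downregulated, DESeq2 also called 0, and 6 were lower at an unadjusted edgeR p below 0.05. NFE2L1, BTRC, PGAM5 and DPP3 were the remaining regulators and were not called. For SQSTM1, 54.4% of the 31-base words of the canonical transcript also occur in the adjoining gene MRNIP, and for NFE2L3 30.2% occur in other genes. Those of BACH1 are shared at 0.286% only.

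**Figure D4:**
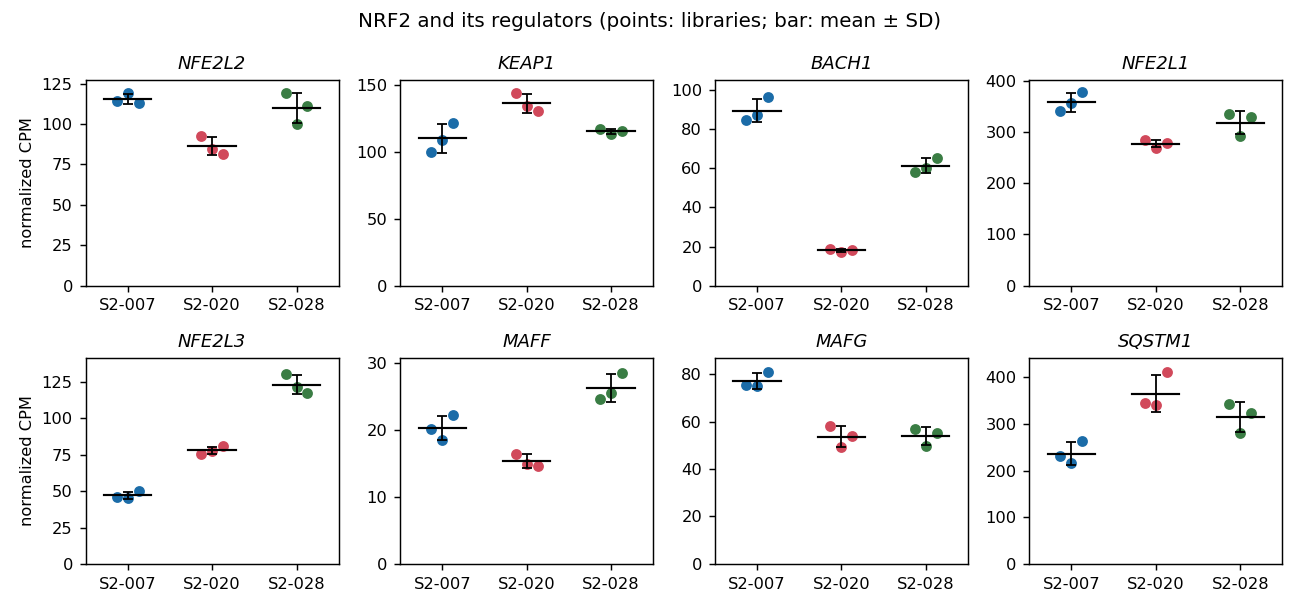
Level of NFE2L2, KEAP1, BACH1, NFE2L1, NFE2L3, MAFF, MAFG and SQSTM1 in normalized CPM (y axis, linear, starting at 0) in the 3 libraries of each subline (x axis), with points for libraries and bars for the mean ± SD. BACH1 averages 18.0 CPM in S2-020 against 89.3 CPM in S2-007, while NFE2L2 stays between 81.5 and 119 CPM in all 9 libraries.

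A further 32 known NRF2 targets included genes called in either direction in every comparison. In S2-028 against S2-007, 3 of 32 (9.38%) were upregulated against 10.2% of all genes and 10 (31.2%) downregulated against 8.19%, with a median log2 difference of −0.20. Of the same genes, 8 (25%) were upregulated against 9.57% and 12 (37.5%) downregulated against 12.1% in S2-020 against S2-007, with a median of −0.04. Between S2-028 and S2-020, 8 (25%) were upregulated against 12.1% and 11 (34.4%) downregulated against 10.1%, with a median of −0.04. The share upregulated in S2-028 against S2-007 was thus that of the background, and the number upregulated in S2-028 against S2-007 was 5 without replicate 3 of S2-007.

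GPX2, the epithelial glutathione peroxidase, showed the widest difference of these 32. It was at 141, 155 and 130 CPM in S2-007, at 0.139, 0.120 and 0.209 CPM in S2-020 (10 to 15 reads per library), and at 56.6, 55.1 and 50.8 CPM in S2-028. It was downregulated in S2-020 against S2-007 at −9.86 ± 0.132 on the log2 scale (SE, adjusted p = 6.5e-21) and in S2-028 against S2-007 at −1.39 ± 0.0737 (adjusted p = 2.3e-12). The first of these standard errors may be too small, because it rests on few S2-020 reads. ALDH3A1, an aldehyde dehydrogenase, was at 104 ± 4.93 CPM in S2-007 and was downregulated in S2-028 (−3.76 ± 0.128, adjusted p = 1.4e-15) and in S2-020 (−2.62 ± 0.0637, adjusted p = 2.63e-17). CYP4F11, a fatty acid hydroxylase, was downregulated in S2-020 against S2-007 at −5.01 ± 0.140 (adjusted p = 2.33e-16). S2-007 was thus the line with the highest GPX2, ALDH3A1 and CYP4F11, as it was for AKR1B10.

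The ferritin subunits differed from each other. The light chain FTL was at 220 ± 39.2 CPM in S2-007, 692 ± 26.3 in S2-020 and 279 ± 12.1 in S2-028, and was upregulated in S2-020 against S2-007 at 1.62 ± 0.0800 on the log2 scale (SE, adjusted p = 1.58e-12). The heavy chain FTH1 was at 4075 ± 196, 4393 ± 139 and 1321 ± 27.5 CPM and was downregulated in S2-028 against S2-007 at −1.62 ± 0.0491 (adjusted p = 2.32e-16). Both have processed copies, and 33.5% of the 31-base words of FTL and 84.8% of those of FTH1 also occur in other genes, for FTH1 mostly in BEST1 on the opposite strand. Within the list of 13 heme and iron genes, SLC48A1 (heme transport from lysosomes) and CPOX (heme synthesis) were upregulated in S2-028 against S2-007, and ALAS1 (the first step of heme synthesis), FTH1 and SLC40A1 were downregulated, or 15.4% and 23.1% of the list against 10.2% and 8.19% of all genes. In S2-020 against S2-007 the counts were 3 upregulated (CPOX, FTL and SLC48A1) and 3 downregulated (ALAS1, HMOX2 and SLC40A1), each 23.1% against 9.57% and 12.1% of all genes. In S2-028 against S2-020 FTH1 and FTL were downregulated (15.4% against 10.1%) and 0 upregulated by edgeR or DESeq2, with 3 higher at an unadjusted edgeR p below 0.05.

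**Figure D5:**
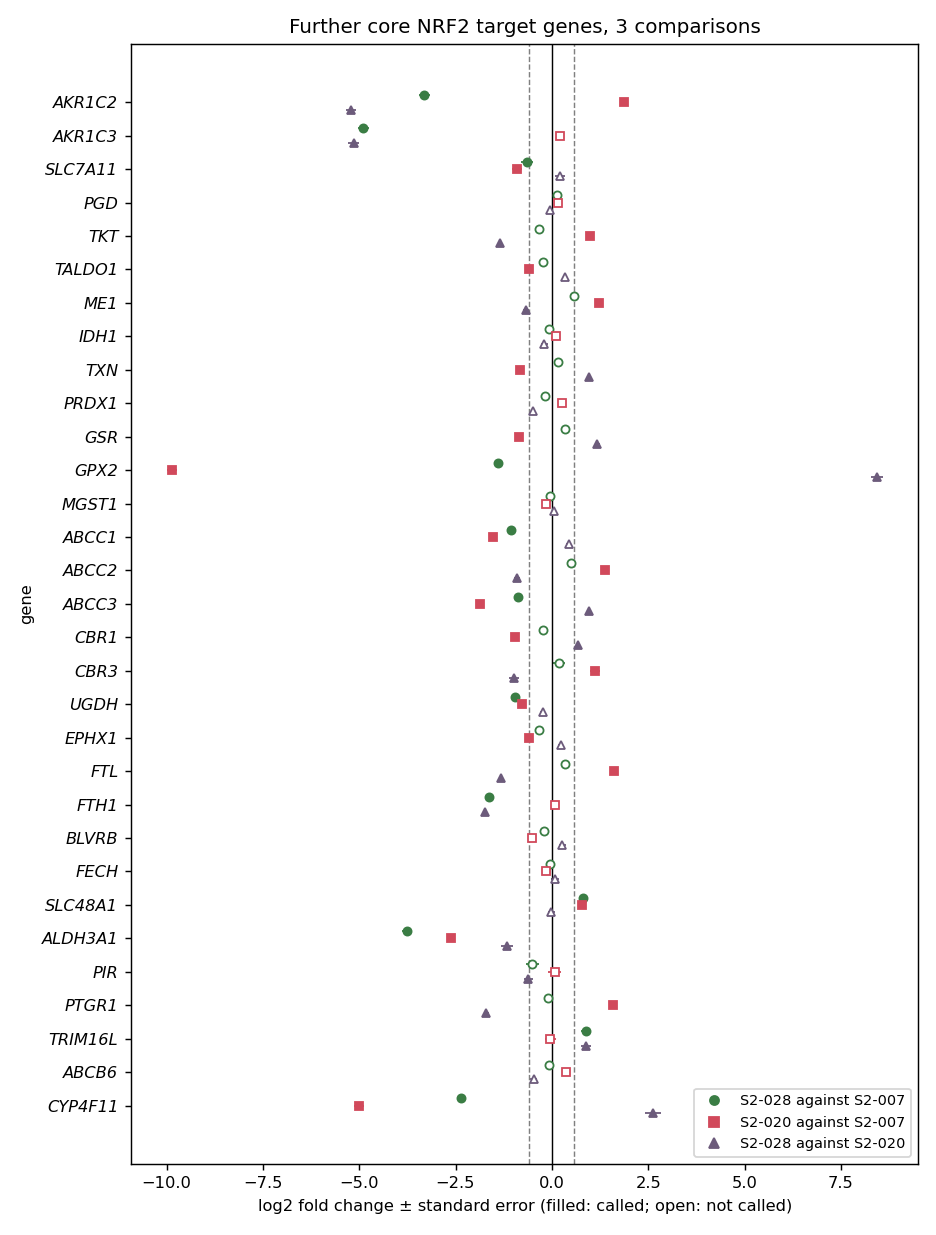
Log2 fold change ± standard error (x axis) of 31 of the 32 further known NRF2 targets (y axis) in the 3 comparisons, with filled symbols for genes called, open symbols for genes not called and dashed lines at the 1.5-fold limit. Symbols lie on both sides of 0 in every comparison, from −9.86 for GPX2 in S2-020 against S2-007 to 8.44 for the same gene in S2-028 against S2-020.

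For the smaller lists that follow, the shares of all genes upregulated and downregulated were again 10.2% and 8.19% in S2-028 against S2-007, 9.57% and 12.1% in S2-020 against S2-007, and 12.1% and 10.1% in S2-028 against S2-020. In the glutathione list, 27 of 28 genes were tested in S2-028 against S2-007 and 0 were upregulated and 7 (25.9%) downregulated, among them SLC3A2 (−1.22 ± 0.0965, adjusted p = 1.33e-09), the partner of the cystine carrier, GLRX2 (−1.43) and GSTM4 (−2.24). The comparison of S2-020 with S2-007 gave 3 (11.1%) upregulated and 6 (22.2%) downregulated, the latter including glutathione reductase GSR (−0.87 ± 0.0581, adjusted p = 1.89e-10), GSTO2 (−1.45) and GPX3 (−1.25). Between S2-028 and S2-020, 3 of 26 (11.5%) were upregulated and 8 (30.8%) downregulated, with GSR at 1.18 and SLC3A2 at −2.05. The 0 upregulated glutathione genes in S2-028 against S2-007 were also 0 by DESeq2, and 4 were higher at an unadjusted edgeR p below 0.05. The increase of GCLM in S2-020 thus stood beside a decrease of GSR.

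In the thioredoxin list of 14 genes, SESN3 alone (7.14%) was called by edgeR in S2-028 against S2-007 (−2.68 ± 0.177, adjusted p = 7.54e-11), whereas DESeq2 called 2 downregulated. In the other direction 0 were upregulated by edgeR or DESeq2 and 6 were higher at an unadjusted edgeR p below 0.05. Relative to S2-007, S2-020 had 2 (14.3%) upregulated, namely the endoplasmic reticulum peroxiredoxin PRDX4 (1.16 ± 0.0563, adjusted p = 1.2e-12) and sestrin 2 (SESN2, 1.48), and 5 (35.7%) were downregulated, among them PRDX5 (−0.95) and the thioredoxin-binding protein TXNIP (−0.96). Relative to S2-020, S2-028 had 4 (28.6%) upregulated, including thioredoxin itself (TXN, 0.96 ± 0.0502, adjusted p = 6.7e-12), and 2 (14.3%, PRDX4 and SESN2) were downregulated. TXN was lowest in S2-020 at 153 ± 5.40 CPM, as was TXNRD1.

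Of 12 genes that supply NADPH, 2 (16.7%) were upregulated, malic enzyme 3 (ME3, 1.08) among them, and 0 downregulated in S2-028 against S2-007. In S2-020, 4 (33.3%) were upregulated against S2-007, namely malic enzyme 1 (ME1, 1.22 ± 0.0819, adjusted p = 1.89e-10), transketolase (TKT, 0.99), IDH2 (0.72) and ME2 (0.70), and 1 (8.33%, TALDO1) was downregulated. Against S2-020, 2 (16.7%) were upregulated in S2-028, again including ME3, and 4 (33.3%) downregulated. The 0 downregulated in S2-028 against S2-007 were 0 by DESeq2 too, with 3 lower at an unadjusted edgeR p below 0.05.

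Among 23 reductases and aldehyde dehydrogenases, 20 were tested, with 2 upregulated (10%) and 6 downregulated (30%) in S2-028 against S2-007, 5 (25%) and 5 (25%) in S2-020 against S2-007, and 2 (10%) and 8 (40%) in S2-028 against S2-020. PTGR1, a reductase of leukotrienes and prostaglandins, was at 33.4 ± 0.845 CPM in S2-007, 103 ± 5.53 in S2-020 and 31.4 ± 1.68 in S2-028, and was upregulated in S2-020 against S2-007 at 1.59 ± 0.0596 (adjusted p = 2.23e-14). ALDH3A2 was downregulated against S2-007 in S2-028 (−2.0) and in S2-020 (−1.94). Of the 6 efflux pumps, ABCC4 was upregulated against S2-007 in S2-028 (1.40 ± 0.0616, adjusted p = 1.05e-13) and in S2-020 (2.74 ± 0.0599, adjusted p = 5.83e-18), while ABCC1, ABCC3 and ABCG2 were downregulated in both. In total 1 pump (16.7%) was upregulated and 3 (50%) downregulated in S2-028 against S2-007, 2 (33.3%) and 3 (50%) in S2-020 against S2-007, and 2 (33.3%) and 2 (33.3%) in S2-028 against S2-020.

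Of 18 genes that make or remove reactive oxygen species, 17 were tested in both comparisons with S2-007, with 2 upregulated (11.8%) and 4 downregulated (23.5%) in S2-028 and 2 (11.8%) and 3 (17.6%) in S2-020. In S2-028 against S2-020, 1 of 15 (6.67%) was upregulated and 3 (20%) downregulated. The shares upregulated lay near those of all genes in both comparisons with S2-007. The hydrogen peroxide-producing oxidase DUOX2 was at 16.3 ± 3.26 CPM in S2-007 and at 0.290 ± 0.196 and 0.480 ± 0.361 CPM in S2-020 and S2-028. Its maturation factor DUOXA2 was counted at 108 to 219 reads per library in S2-007 and at 0 in all 6 other libraries. SOD3, the extracellular superoxide dismutase, was upregulated against S2-007 in S2-028 (1.64) and in S2-020 (1.32).

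The 9 targets were finally compared with 10517 other expressed genes for the shape of their pattern, as Pearson's r of log2 CPM over the 9 libraries. These genes were not matched to the targets in level. Because these 9 libraries are 3 lines of 3, any gene with the same order of lines scores highly, and the values are a description. The 2 most similar genes were PSEN2 and MRPL2 for NQO1 (r = 0.993 and 0.988), RHPN2 and C8orf88 for HMOX1 (0.992 and 0.991), ADAR and NHSL1 for GCLM (both 0.996) and SLC38A4 and YWHAB for AKR1C1 (both 0.996). They were SLC12A7 and B3GALT5 for AKR1B10 (both 0.999), CACNA2D1 and CTBP1 for OSGIN1 (0.983 and 0.982) and PSME4 and POLE3 for TXNRD1 (0.979 and 0.974). GCLC was most similar to DENND1A and BAG5 (0.955 and 0.95), and SRXN1 to RBM25 and ALG14 (0.968 and 0.955). An r of at least 0.95 was found with 511 genes for AKR1C1 and 509 for GCLM, but with 2 genes each for GCLC and SRXN1.

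Taking the 9 targets per kilobase of canonical transcript, the order of levels differed between the lines. In S2-007 it was TXNRD1 (183 CPM per kb), NQO1 (112), AKR1B10 (29.2), SRXN1 (24.3), GCLC (15.2), OSGIN1 (11.9), GCLM (6.90), AKR1C1 (5.12) and HMOX1 (2.53). In S2-020 it was NQO1 (157), TXNRD1 (138), AKR1C1 (37.1), SRXN1 (24.0), GCLM (20.6), GCLC (12.9), HMOX1 (11.5), OSGIN1 (7.68) and AKR1B10 (0.169). In S2-028 it was TXNRD1 (192), NQO1 (97.9), SRXN1 (21.8), GCLC (12.9), GCLM (9.29), OSGIN1 (4.97), AKR1B10 (2.25), HMOX1 (1.61) and AKR1C1 (0.393). By this measure AKR1C1 moved from the next to last place in S2-007 to the third in S2-020 and the last in S2-028. Its places rest on a canonical transcript of 6543 bases, against 1186 bases for AKR1C3, which also has 9 exons. A shorter length would give AKR1C1 higher values per kilobase in every line. Neighbors in these orders whose mean ± SD ranges overlapped were GCLC and OSGIN1 as well as GCLM and AKR1C1 in S2-007, GCLC and HMOX1 in S2-020, and AKR1B10 and HMOX1 in S2-028. The ranking by length assumes the canonical GENCODE transcript for each gene, and transcript use was not measured.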

How the data were processed

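Poly(A)-enriched, strand-specific libraries of the 3 sublines (3 each) were sequenced on a NovaSeq 6000. The authors trimmed reads with Trimmomatic (0.39) and aligned them to GRCh38.p14 with BWA (0.7.17), per the labels and methods, and SAMtools (1.12) and edgeR (3.16.5) are also named in the submitters' processing notes. The deposited values used here are raw read counts per gene. The counting program, its strand setting and its handling of reads that match several genes are not given in the sources used here, which bears on AKR1C1, AKR1B10, SRXN1, NQO1, SQSTM1, FTH1 and FTL. The 18 columns of values that the authors normalized were not used, and 2 rows that name no gene were left out.

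For each pair of lines, the 6 libraries were filtered (filterByExpr, minimum count 10, minimum total 15), scaled by TMM and tested with edgeR's (4.0.16) quasi-likelihood test (R 4.3.3), with p-values adjusted by Benjamini-Hochberg over 26371, 26657 and 26031 genes in S2-028 against S2-007, S2-020 against S2-007 and S2-028 against S2-020. The alternatives were DESeq2 (1.42.0), the likelihood ratio test, other scaling, no filter, all 9 libraries in 1 fit, a replicate block, summed paralogs and each library left out. Standard errors are the log2 fold change divided by the square root of F. For large differences that rest on few reads this quotient can be smaller than the counting error, as for GPX2 and AKR1B10 in S2-020 against S2-007. On simulated data for S2-028 against S2-007, 54 of 61 genes with a mean count over 100 and a log2 change of 1 were recovered. Total counts of 60328748 to 86253923 per library set the counting precision, and floors cover counting error only. Gene IDs were matched to RefSeq (99.6%), whose gene positions and promoter table are of GRCh38.p14, and sequence outside that table was read from hg38. Lengths, exons and 31-base words are from GENCODE transcripts.

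The 9 targets, the other gene lists and the rules were chosen with earlier results of these data known. Genes named are the 9 targets, all 18 regulators, up to 4 called genes with the smallest adjusted p per other list and comparison, paralogs of AKR1C1 and AKR1B10, and the 2 genes most similar to each target in pattern. Where a count was 5 or fewer, its other members, such as SLC40A1 and TALDO1, were named after their values were seen. One gene of the core target and NADPH lists is counted there but not reported here by name or drawn.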

Additional observations from a re-analysis of the deposited data

How the results depend on the processing

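Of the 378 recomputed log2 differences of the 9 targets, 363 kept their direction and whether they were called, 7 lost the call, 1 gained it and 7 changed sign. Among these 363, 4 lost an adjusted p below 0.05 (all GCLC) and 6 gained one (5 of NQO1 and 1 of TXNRD1, all in S2-028 against S2-007), with no change of call because they were below 1.5-fold. All 7 changes of sign were in differences that were never called. TXNRD1 in S2-028 against S2-007 ran from −0.0172 to 0.211 with single libraries left out, SRXN1 in S2-020 against S2-007 from −0.0729 to 0.0510, and GCLC in S2-028 against S2-020 from −0.0703 to 0.0675, and GCLC was at 0.0776 when scaled by library size only. The calls lost or gained were those of HMOX1, OSGIN1 and NQO1 given above, and OSGIN1 in S2-028 against S2-020 was also not called when scaled by library size only (−0.55). With single libraries left out, the number of targets downregulated in S2-020 against S2-007 was 1 to 2 and the number of further targets upregulated in S2-028 against S2-007 was 3 to 5, the extremes coming from leaving out replicate 3 of S2-007. The cause was not tested. Scaling by library size only moved the median log2 difference of all genes to −0.11 in S2-020 against S2-007 and to 0.11 in S2-028 against S2-020. Over all genes, the replicate numbers gave no sign of pairing, with correlations of same-numbered deviations of −0.0226 to 0.00626. These correlations weigh all genes tested alike, so the noise of genes with few reads can hide a shared effect of the replicate number. They cannot exclude pairing. For the 9 targets, whose median was highest in replicate 3 of every line, pairing was not tested separately. With the replicate number as a block, 4865, 5650 and 5716 of all genes were called, against 4858, 5769 and 5788 without it, and no call of a target changed. The levels of AKR1B10 in S2-020 rest on 18 to 22 reads and set the precision of the folds drawn from them.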

Other observations

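Within a line, some libraries stood higher for the targets than for other genes. In replicate 3 of S2-007 the median target lay 0.17 above the mean of its line on the log2 scale, and the median of 10524 expressed genes lay 0.04 above it. In replicate 3 of S2-028 the corresponding values were 0.14 and 0.00, with 6 of 9 targets highest there against 36.0% of genes. In S2-020 the median target lay at 0.06 in replicate 3, where the median of expressed genes lay at −0.01, and at −0.02 and −0.03 in replicates 1 and 2. Replicate 3 thus had the highest median of the targets in every line. The cause was not tested.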
